A study of Mus musculus with 12 samples.

Results

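Bdh1, Oxct1 and Acat1 are the mitochondrial enzymes through which the heart burns ketone bodies, and their transcripts were followed in 12 mouse heart libraries. The members were matched by gene symbol and are 3 of the 54146 gene records counted in each library. Sham WT were wild-type mice after sham surgery, TAC WT were wild-type mice with transverse aortic constriction (TAC), a narrowing of the aorta that makes the left ventricle pump against high pressure, and TAC KO were NRON KO mice after TAC. NRON (mouse gene Nron) is a long noncoding RNA, and the study asked which processes its loss touches in cardiac hypertrophy. Each group had 4 libraries, all from hearts taken 6 weeks after surgery and made from 250 ng of RNA enriched for polyadenylated transcripts. The strain, age and sex of the mice and the design of the NRON KO allele are not given in the sources used here, and sham-operated knockouts were not analysed here. Nothing in the labels ties the libraries of a group to separate animals, so p-values cover only the spread between these samples, which may be technical.

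Ketone bodies are small fuels that the liver makes from fatty acids during fasting, and the heart is one of their main consumers. Bdh1 (3-hydroxybutyrate dehydrogenase) oxidises beta-hydroxybutyrate to acetoacetate inside the mitochondrion. Oxct1 (succinyl-CoA:3-ketoacid CoA transferase, SCOT) then activates acetoacetate with coenzyme A taken from succinyl-CoA, the step that liver lacks. Acat1 (mitochondrial acetoacetyl-CoA thiolase) splits the product into acetyl-CoA for the tricarboxylic acid cycle, and it also serves isoleucine breakdown. Bdh1 and Acat1 work in both directions.

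In the GENCODE annotation of build GRCm38, Bdh1 (ENSMUSG00000046598.15) lies on chromosome 16 from 31422280 to 31458901 on the plus strand, with 7 transcripts whose merged exons cover 3888 bases. Oxct1 (ENSMUSG00000022186.14) lies on chromosome 15 from 4026383 to 4155344 on the plus strand, with 5 transcripts and 3701 exonic bases. Acat1 (ENSMUSG00000032047.5) lies on chromosome 9 from 53580522 to 53610382 on the minus strand, with 3 transcripts and 3758 exonic bases. No other annotated gene had a transcript at least 95% identical to one of them over 50% of its length. Counts cover whole genes, so exons and transcripts were not separated. Gm15743 overlaps 533 exonic bases of Bdh1 on the opposite strand and BC037032 overlaps 467 of Oxct1, and their own counts came to 0.836% and 0.282% of the counts of the enzyme they overlap. The libraries were stranded, but how strand was used when reads were counted is not given in the sources used here, so reads from these overlaps cannot be told apart.

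The promoter source used here held no entry for Acat1, so the promoters below are those of Bdh1, with 2 annotated starts, and of Oxct1. They are the 250 bases before each RefSeq transcription start on GRCm38.p6, 5′ to 3′ in the direction of the gene, and capitals mark GGTCA, the core of a nuclear receptor half-site, or TGACC, the same letters on the other strand.
Bdh1 promoter 1, chr16:31422047-31422296, plus strand: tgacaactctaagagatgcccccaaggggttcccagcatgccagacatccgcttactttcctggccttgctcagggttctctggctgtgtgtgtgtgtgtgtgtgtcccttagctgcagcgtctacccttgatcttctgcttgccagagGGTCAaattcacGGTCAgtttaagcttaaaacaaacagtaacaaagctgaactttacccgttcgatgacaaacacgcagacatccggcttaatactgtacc
Bdh1 promoter 2, chr16:31428503-31428752, plus strand: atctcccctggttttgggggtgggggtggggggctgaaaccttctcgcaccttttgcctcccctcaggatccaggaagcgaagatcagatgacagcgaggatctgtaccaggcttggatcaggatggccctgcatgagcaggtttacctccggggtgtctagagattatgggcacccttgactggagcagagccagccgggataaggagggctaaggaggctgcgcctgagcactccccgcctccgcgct
Oxct1 promoter, chr15:4026178-4026427, plus strand: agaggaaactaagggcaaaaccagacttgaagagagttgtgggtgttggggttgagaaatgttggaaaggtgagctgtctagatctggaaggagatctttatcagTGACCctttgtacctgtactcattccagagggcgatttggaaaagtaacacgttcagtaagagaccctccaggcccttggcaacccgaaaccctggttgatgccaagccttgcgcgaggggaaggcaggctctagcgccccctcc
The first Bdh1 window held GGTCA on its own strand at 101 and 89 bases before the start, and the Oxct1 window held it on the other strand at 145 bases before the start. The second Bdh1 window held none. These 5 letters, searched on both strands and chosen after the sequences were seen, occur in 35.2% of the 32851 promoter windows of this length, so their presence is a description and no site. None of the 3 windows held the full half-site AGGTCA (14% of all windows), its extension AAGGTCA (4.08%), the E-box CACGTG (6.02%), the GC box GGGCGG (32.7%), CCAAT (33.8%) or TATAAA (12.4%). GGTCA lies within AGGTCA, and AGGTCA within AAGGTCA. GC content was 49.6% and 60.8% in the Bdh1 windows and 52.0% in that of Oxct1.

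Library totals ran from 26288519 to 35945770 counts, so a gene with 0 counts in a library could have up to 0.0835 to 0.114 counts-per-million (CPM), which is 3 counts of the total. The share of counts from mitochondrially encoded genes was 20.2 to 22.2% in Sham WT, lower in TAC WT at 17.4 to 19.8%, and 18 to 20.7% in TAC KO. Both annotated records of Nron had 0 counts in all 12 libraries, so these counts hold no check of the knockout. The tissue and surgery labels were set beside marker lists, which were chosen with earlier results of these data known and so are no independent check. The summed level of 10 cardiomyocyte genes was 77423 to 88783, 72709 to 76461 and 72681 to 77691 CPM in Sham WT, TAC WT and TAC KO. That of 7 cardiac stress genes was 2733 to 4418, 20438 to 32400 and 7647 to 12867 CPM. The labels call the tissue heart, and 4 markers of atrial muscle summed to only 2.18 to 2.93, 2.02 to 2.77 and 1.7 to 2.65 CPM in the same groups, most of it from Myl4. In samples of bulk tissue fewer cells of a type and less RNA per cell cannot be told apart.

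All 3 enzymes were strongly expressed, in the order Oxct1, Acat1, Bdh1. Per kilobase of merged exons, Oxct1 stood at 388 ± 10.5 CPM per kb in Sham WT, above 99.4% of the 15477 tested genes (SD, n = 4 here and for every group value). Acat1 stood at 161 ± 6.17 CPM per kb, above 98.6% of tested genes. Bdh1 stood at 49.2 ± 8.6 CPM per kb, above 95.7%. The order held in each of the 12 libraries, and the level of Bdh1 per kb rose to 77.4 ± 16.6 in TAC WT and 70.3 ± 11.1 in TAC KO without reaching that of Acat1, at 135 ± 7.68 and 159 ± 10.2. Oxct1 was at 358 ± 32.6 and 371 ± 30.1 CPM per kb in these groups. Raw counts per library ran from 4661 to 12834 for Bdh1, from 31386 to 51455 for Oxct1 and from 13107 to 22468 for Acat1. Counting error was therefore small: in Sham WT it would give a coefficient of variation of 1.26%, 0.461% and 0.709%, against 17.5%, 2.71% and 3.82% measured between libraries. Bdh1 was the most variable of the 3 in every group, with 21.4% in TAC WT and 15.8% in TAC KO.

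Bdh1, the dehydrogenase at the entry of the pathway, was higher in each of the 8 TAC libraries than in each of the 4 sham libraries. Its level, in CPM scaled by trimmed mean of M-values (TMM; all levels below are on this scale), was 222, 155, 217 and 171 in Sham WT libraries 1 to 4. In TAC WT it was 351, 360, 228 and 265, and in TAC KO it was 299, 320, 230 and 245. The lowest TAC WT library, at 228, lay just above the highest sham library, at 222, and within each TAC group a pair of libraries lay near or above 300 and a pair lower. Of all tested genes, 24.7% had no overlap between TAC WT and Sham WT and 30.7% between TAC KO and Sham WT. The share with both was not counted. The group levels of Bdh1 were 191 ± 33.4, 301 ± 64.4 and 273 ± 43.2 CPM. In TAC WT against Sham WT the log2 fold change was 0.65 (SE 0.16, 95% interval 0.32 to 0.99, edgeR adjusted p = 0.00959), a 1.57-fold rise with an interval of 1.25 to 1.99. This was larger in size than the fold change of 90.3% of tested genes.

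Oxct1, the transferase that activates acetoacetate, passed the test in no comparison. Its level was 1426, 1467, 1469 and 1387 CPM in sham hearts, 1356, 1434, 1358 and 1152 in TAC WT, and 1262, 1474, 1292 and 1463 in TAC KO. Of the TAC WT libraries 3 lay below all sham libraries and 1 lay within their range, with library 4 lowest of all 12. The group levels were 1437 ± 38.9, 1325 ± 121 and 1373 ± 111 CPM, and neighbours in this order differed by less than the larger SD. The log2 fold change was -0.12 in TAC WT against Sham WT (SE 0.08, 95% interval -0.28 to 0.05, edgeR adjusted p = 0.31), so the interval allows levels between 0.82 and 1.03 times those of sham hearts.

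Acat1, the thiolase that yields acetyl-CoA, was lower in TAC WT than in both other groups. Its level was 628, 625, 582 and 592 CPM in sham hearts, 512, 546, 491 and 481 in TAC WT, and 552, 608, 585 and 643 in TAC KO. No TAC WT library reached the lowest library of either other group, although the gap to TAC KO was narrow, with 546 against 552. Of all tested genes, 24.7% had no overlap between TAC WT and Sham WT and 28.4% between TAC KO and TAC WT. The share with both was not counted. The group levels of Acat1 were 607 ± 23.2, 507 ± 28.9 and 597 ± 38.4 CPM. In TAC WT against Sham WT the log2 fold change was -0.26 (SE 0.06, 95% interval -0.39 to -0.12, edgeR adjusted p = 0.0115), which is 0.84 times the sham level with an interval of 0.76 to 0.92. In TAC KO against TAC WT it was 0.23 (SE 0.06, 95% interval 0.10 to 0.37, edgeR adjusted p = 0.0126), a 1.18-fold difference with an interval of 1.07 to 1.29.

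**Figure D1:**
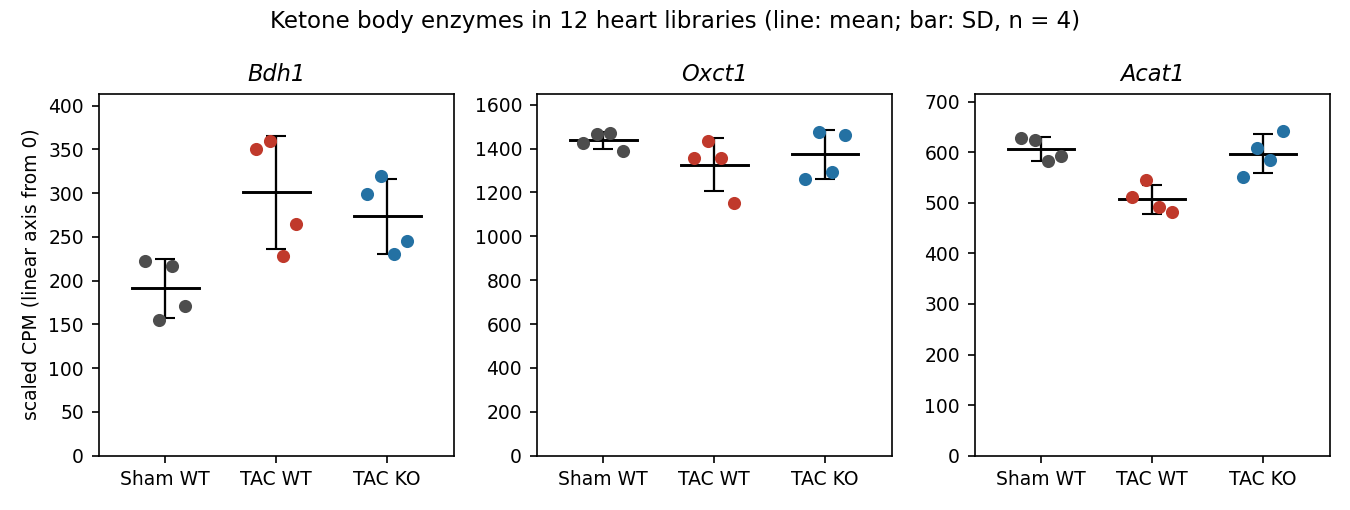
Level of Bdh1, Oxct1 and Acat1 in scaled CPM (y axis, linear from 0) in 4 libraries of each of the 3 groups (x axis), with the mean as a line and the SD as a bar. All TAC WT and TAC KO points of Bdh1 lie above its sham points, Oxct1 overlaps between groups, and the TAC WT points of Acat1 lie below those of both other groups.

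The first comparison asked what 6 weeks of pressure overload did in wild-type hearts. Of the 3 enzymes 1 rose (Bdh1), 1 fell (Acat1) and 1 did not pass, where 19.7% of the 15477 tested genes passed in either direction, 9.67% higher and 10.0% lower. The libraries of the groups did not overlap for Bdh1 and Acat1, as for 24.7% of tested genes. Both calls were kept when each library was left out in turn, with log2 values of 0.56 to 0.77 (adjusted p 0.00344 to 0.0338) for Bdh1 and -0.29 to -0.23 (adjusted p 0.00611 to 0.0438) for Acat1. Other values moved with this comparison: the summed cardiomyocyte markers and the mitochondrial share were lower in TAC WT as given above, and 7 fibroblast markers summed to 712 to 815 CPM in Sham WT and 831 to 1121 CPM in TAC WT. Of the cardiomyocyte markers 2 of 10 fell, Myh6 and Tnni3, and 8 did not pass, with log2 values from -0.27 (Ryr2) to 0.19 (Actc1). Myh6, the most abundant of them, went from 30665 ± 1268 to 24847 ± 2102 CPM and so weighs most in their sum. Of the fibroblast markers 3 of 7 rose. Summed levels of 6 macrophage markers were 122 to 137 and 105 to 151 CPM, and of 6 endothelial markers 1113 to 1311 and 1133 to 1412 CPM. The part of these in the changes of Bdh1 and Acat1 was not tested. With mitochondrially encoded genes left out of the fit, the log2 values were 0.66 and -0.25.

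The second comparison asked how the knockout differed from wild type under the same surgery. It shares the TAC WT libraries with the first, so a library that is low or high there moves both. Of the 3 enzymes 1 passed (Acat1, higher), where 33.0% of tested genes passed, 15.7% higher and 17.3% lower. Acat1 was also the only one of the 3 whose libraries did not overlap, as for 28.4% of tested genes. Leaving out each library in turn gave 0.19 to 0.27 (adjusted p 0.00751 to 0.0443). Bdh1 did not pass, with a log2 fold change of -0.14 (SE 0.16, 95% interval -0.47 to 0.20, edgeR adjusted p = 0.528), an interval that runs from 0.72 to 1.15 times the TAC WT level. Oxct1 had 0.05 (SE 0.08, 95% interval -0.11 to 0.22, edgeR adjusted p = 0.645), which became -0.01 without TAC WT library 4. Macrophage markers summed to 172 to 214 CPM in TAC KO, above both other groups, fibroblast markers to 937 to 1311 CPM and endothelial markers to 994 to 1128 CPM. Against TAC WT, 5 of 6 macrophage, 2 of 7 fibroblast and 2 of 10 cardiomyocyte markers rose, 1 of 6 endothelial markers fell, and of 6 mural cell markers (smooth muscle and pericyte) 2 rose and 1 fell. Their part in the difference of Acat1 was not tested.

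In TAC KO against Sham WT surgery and genotype differ together, and their effects cannot be told apart. Of the 3 enzymes 1 passed (Bdh1, higher), where 27.6% of tested genes passed, 12.8% higher and 14.8% lower. Bdh1 had a log2 fold change of 0.51 (SE 0.16, 95% interval 0.18 to 0.85, edgeR adjusted p = 0.0258), which is 1.43-fold with an interval of 1.13 to 1.80. Its libraries did not overlap, as for 30.7% of tested genes, but the adjusted p was 0.0739 without Sham WT library 2, 0.0773 without Sham WT library 4, 0.0607 without TAC KO library 1 and 0.068 without TAC KO library 2. In the same comparison 5 of 6 macrophage and 5 of 7 fibroblast markers rose, 1 of 6 endothelial markers fell, 1 of 10 cardiomyocyte markers rose and 3 fell, and of 6 mural cell markers (smooth muscle and pericyte) 3 rose and 1 fell. Their part in the difference of Bdh1 was not tested. Acat1 had -0.02 (SE 0.06, 95% interval -0.16 to 0.11, edgeR adjusted p = 0.824), within 0.89 to 1.08 times the sham level, and this sign turned under several settings. Oxct1 had -0.07 (SE 0.08, 95% interval -0.23 to 0.10, edgeR adjusted p = 0.554), within 0.85 to 1.07 times.

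**Figure D2:**
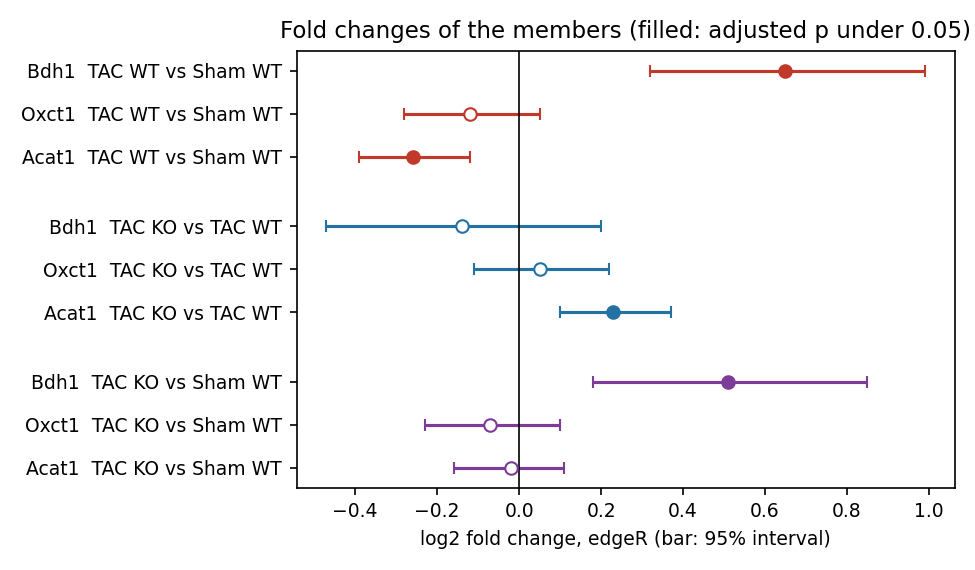
Log2 fold change (x axis) of each enzyme in the 3 comparisons, with the 95% interval as a bar and filled points where the edgeR adjusted p is under 0.05. Filled points are Bdh1 at 0.65 and Acat1 at -0.26 in TAC WT against Sham WT, Acat1 at 0.23 in TAC KO against TAC WT, and Bdh1 at 0.51 in TAC KO against Sham WT.

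Ratios between the enzymes within a library do not depend on how libraries are scaled. Bdh1 had 10.6 to 15.6% as many counts as Oxct1 in sham hearts (mean 13.3 ± 2.3), 16.8 to 25.9% in TAC WT (22.7 ± 4.09), and in TAC KO it had 16.7 to 23.7% (20 ± 3.28). All 8 libraries of constricted hearts lay above all sham libraries. The ratios reuse the counts behind the levels given above, and the share of other gene pairs without overlap was not counted. Against Acat1, Bdh1 had 24.8 to 37.3% in sham hearts (31.6 ± 5.8), 46.6 to 68.5% in TAC WT (59 ± 10.1), and in TAC KO 38.1 to 54.2% (46.1 ± 8.58), again with no overlap between sham and constricted hearts. Acat1 had 39.6 to 44% as many counts as Oxct1 in sham hearts (42.2 ± 1.86), 36.1 to 41.8% in TAC WT (38.4 ± 2.38), and in TAC KO it had 41.2 to 45.3% (43.5 ± 1.69), and these ranges overlapped.

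With 4 libraries against 4, the smallest two-sided p that an exact permutation test over the 70 splits can give is 0.0286, and 9 tests were adjusted together. The log2 ratio of Bdh1 to Oxct1 differed by 0.77 between TAC WT and Sham WT and by 0.59 between TAC KO and Sham WT, each with exact p = 0.0286 and adjusted p = 0.0643. The ratio of Bdh1 to Acat1 differed by 0.90 and 0.54 in the same comparisons, with the same exact and adjusted p. None of these passed 0.05 after adjustment. They were already at the smallest exact p, so passing would have needed more of the 9 tests to reach it. Between TAC KO and TAC WT the ratio of Acat1 to Oxct1 differed by 0.18 (exact p = 0.0571, adjusted p = 0.0857), that of Bdh1 to Acat1 by -0.36 (exact p = 0.114, adjusted p = 0.147) and that of Bdh1 to Oxct1 by -0.18 (exact p = 0.286, adjusted p = 0.321). The ratio of Acat1 to Oxct1 differed by -0.14 between TAC WT and Sham WT (exact p = 0.0571, adjusted p = 0.0857). Between TAC KO and Sham WT it differed by 0.04 (exact p = 0.429, adjusted p = 0.429).

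**Figure D3:**
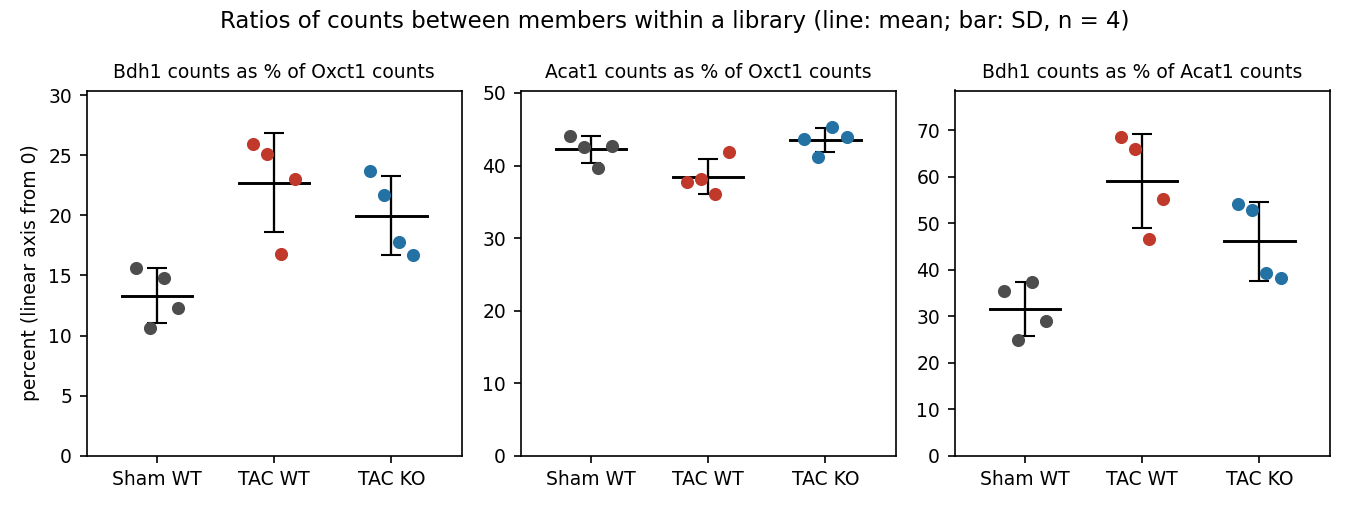
Counts of one enzyme as a percent of those of another in the same library (y axis, linear from 0) for 4 libraries of each group (x axis), with the mean as a line and the SD as a bar. Bdh1 relative to Oxct1 runs from 10.6 to 15.6% in sham hearts and from 16.7 to 25.9% in constricted hearts of either genotype.

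The rest of the ketone body pathway was read from a list of 30 genes for synthesis, transport, sensing and control, of which 21 passed the filter on low counts. In TAC WT against Sham WT 3 rose, 6 fell and 12 did not pass, with a median log2 fold change of -0.14 against -0.0004 over all tested genes, of which 9.67% rose and 10.0% fell. In TAC KO against TAC WT 7 rose, 3 fell and 11 did not pass (median 0.09 against -0.0021), where 15.7% of all tested genes rose and 17.3% fell. In TAC KO against Sham WT 2 rose, 3 fell and 16 did not pass (median -0.04 against 0.0003), where 12.8% of all tested genes rose and 14.8% fell. The shares of all tested genes that passed in either direction were 19.7%, 33.0% and 27.6%, and the smaller counts given below by role are to be read against them. The 9 that did not pass the filter were Hmgcll1, Acat3, Oxct2a, Oxct2b, Slc5a8, Slc5a12, Hcar2, Ffar3 and Fgf21, and Oxct2a, Oxct2b and Slc5a12 had 0 counts in all 12 libraries. The count of 6 that fell after TAC was unsteady: it was 2, 1, 3 and 3 without Sham WT libraries 1 to 4, 1 without TAC WT library 1 and 2 without TAC WT library 4, and 8 without TAC WT library 2. The 2 that rose in TAC KO against Sham WT became 1 without Sham WT library 3.

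Among 4 tested enzymes of ketone synthesis and cytosolic side reactions, 1 rose and 1 fell in each comparison, where 19.7%, 33.0% and 27.6% of all tested genes passed. Hmgcs1, the cytosolic synthase of the cholesterol pathway, was lower in TAC KO than in TAC WT by a log2 value of -0.32 (SE 0.09, adjusted p = 0.0121) and than in Sham WT by -0.33 (SE 0.09, adjusted p = 0.0107). Bdh2, a cytosolic dehydrogenase related to Bdh1, was rare, with 5 to 8 counts in Sham WT libraries, 5 to 10 in TAC WT libraries and 12 to 22 in those of TAC KO. Its levels were 0.183 ± 0.0338, 0.213 ± 0.0574 and 0.515 ± 0.101 CPM. Only its knockout libraries carried it past the filter on low counts, so it was tested because it was high there, and its calls in TAC KO against either other group, which are among those counted above, are no independent finding.

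Aacs, which activates acetoacetate in the cytosol for lipid synthesis, rose after TAC from 6.01 ± 0.71 to 7.98 ± 1.07 CPM (log2 0.41, SE 0.13, adjusted p = 0.0346), and Acat2, the cytosolic thiolase, fell from 3.22 ± 0.0524 to 2.38 ± 0.37 CPM (log2 -0.44, SE 0.15, adjusted p = 0.0498). The Aacs call was lost without any 1 of Sham WT libraries 1, 2 and 3 and TAC WT libraries 1, 3 and 4 (adjusted p up to 0.103). The Acat2 call was lost in 9 of the 12 fits that left out 1 library and held only without TAC WT library 2, TAC KO library 1 or TAC KO library 3 (adjusted p up to 0.148).

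Carriers of the monocarboxylate family, which move ketone bodies and lactate across membranes, and their partners moved in both directions, with 2 of 6 tested genes up and 1 down after TAC and 2 up and 1 down in TAC KO against TAC WT, where 19.7% and 33.0% of all tested genes passed. Slc16a1 (MCT1), the main carrier for uptake into heart muscle, did not pass in any comparison, at 286 ± 6.34, 295 ± 33.7 and 270 ± 17.8 CPM in Sham WT, TAC WT and TAC KO. Slc16a6 (MCT7), which exports ketone bodies from liver cells, was 15.3, 15.2, 13.5 and 13.4 CPM in sham hearts, 27.1, 22, 22.8 and 22.4 in TAC WT, and 9.89, 12.4, 12.2 and 13.9 in TAC KO. All TAC WT libraries lay above the other 8. Of all tested genes, 24.7% had no overlap between TAC WT and Sham WT and 28.4% between TAC KO and TAC WT. The share with both was not counted. Slc16a6 rose after TAC by 0.72 (SE 0.10, edgeR adjusted p = 2.413e-04). It was lower in TAC KO than in TAC WT by a log2 value of -0.96 (SE 0.10, edgeR adjusted p = 3.493e-05).

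Slc16a3 (MCT4), a carrier of lactate-exporting cells, rose after TAC from 2.23 ± 0.479 to 4.49 ± 1.13 CPM (log2 1.02, SE 0.21, adjusted p = 0.00396). In TAC KO it was at 3.81 ± 0.859 CPM, above Sham WT by 0.79 (SE 0.21, adjusted p = 0.0143; 0.0513 without Sham WT library 3). Slc16a7 (MCT2), a high-affinity carrier, fell after TAC from 4.41 ± 0.43 to 2.14 ± 0.529 CPM (log2 -1.03, SE 0.24, adjusted p = 0.00751). It was higher in TAC KO than in TAC WT by 0.79 (SE 0.24, adjusted p = 0.022), but this was 0.45 (adjusted p = 0.0649) without TAC KO library 2 and 0.66 (adjusted p = 0.0608) without TAC WT library 4. Bsg (basigin), a chaperone that brings some carriers of this family to the membrane, was at 942 ± 82.8 CPM in TAC WT and 1210 ± 96.8 in TAC KO. The log2 value was 0.36 (SE 0.08, edgeR adjusted p = 0.00367), and this call was lost when trends with GC content and length were removed (0.18, adjusted p = 0.106). Emb, a related chaperone, was at 1.02 ± 0.0587, 1.14 ± 0.281 and 1.05 ± 0.12 CPM and did not pass. Of 3 receptors only Hcar1, a lactate receptor, was tested, at 0.31 ± 0.0628, 0.264 ± 0.0743 and 0.285 ± 0.0605 CPM, and it did not pass.

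Of 11 genes that control ketone or fat oxidation 10 were tested. After TAC 4 fell and 6 did not pass, and in TAC KO against TAC WT 4 rose, 1 fell and 5 did not pass. Of all tested genes 10.0% fell in the first of these comparisons, and 15.7% rose and 17.3% fell in the second. Mlycd, which removes malonyl-CoA and so frees fatty acid entry into mitochondria, went from 105 ± 8.97 CPM in sham hearts to 82.7 ± 13.4 in TAC WT (log2 -0.34, SE 0.10, adjusted p = 0.0304) and was at 124 ± 10.5 in TAC KO (0.58 against TAC WT, SE 0.10, adjusted p = 9.882e-04). Esrra, a nuclear receptor that drives mitochondrial genes, went from 197 ± 9.54 to 163 ± 14.3 CPM (log2 -0.27, SE 0.07, adjusted p = 0.0197) and was at 207 ± 15.8 in TAC KO (0.34, SE 0.07, adjusted p = 0.00353). The fall of either after TAC was lost without any 1 of Sham WT libraries 1 and 2 and TAC WT libraries 1 and 4, with adjusted p up to 0.0977 for Mlycd and 0.0609 for Esrra.

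The mitochondrial deacylases Sirt3 and Sirt5 were each higher in TAC KO than in TAC WT by 0.30 on the log2 scale (adjusted p = 0.0202 and 0.0123), and the Sirt3 call was lost without TAC WT library 1 (0.0642) or TAC KO library 1 (0.0594). Ppargc1a, a coactivator of mitochondrial genes, stood at 99.1 ± 4.81 CPM in sham hearts, 73.6 ± 20.1 in TAC WT and 63.3 ± 4.04 in TAC KO. It was lower than in Sham WT in TAC KO (log2 -0.65, SE 0.13, adjusted p = 0.00312) and in TAC WT (log2 -0.43, SE 0.13, adjusted p = 0.0344), where the call was lost without any 1 of the Sham WT libraries or of TAC WT libraries 1, 3 and 4 (adjusted p up to 0.106) and the value was -0.64 without TAC WT library 2. Nr1d1, the clock repressor REV-ERB alpha, fell after TAC from 200 ± 11.2 to 126 ± 19.7 CPM (log2 -0.67, SE 0.22, adjusted p = 0.0477), a call lost without any 1 of the Sham WT libraries, of TAC WT libraries 1, 3 and 4 or of TAC KO library 4 (adjusted p up to 0.119) and by DESeq2 (adjusted p = 0.0783).

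Ppargc1b, a coactivator related to Ppargc1a, was lower in TAC KO than in TAC WT by a log2 value of -0.25 (SE 0.09, adjusted p = 0.0486) and than in Sham WT by -0.32 (SE 0.09, adjusted p = 0.0208). The first call held in only 3 of the 12 fits that left out 1 library, those without Sham WT library 1, Sham WT library 2 or TAC WT library 1 (adjusted p up to 0.139). The second was lost without Sham WT library 2 (0.0724), Sham WT library 4 (0.0513) or TAC KO library 3 (0.0536). Ppara, Ppard and Esrrg, nuclear receptors of fat oxidation, passed in no comparison. Ppara was at 18.3 ± 2.62, 17.2 ± 8.8 and 16.3 ± 2.27 CPM, with TAC WT library 2 at 30 CPM and the rest of that group at 10.4 to 15.6. That library also held the highest TAC WT level of Bdh1, Oxct1, Acat1 and Ppargc1a.

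**Figure D4:**
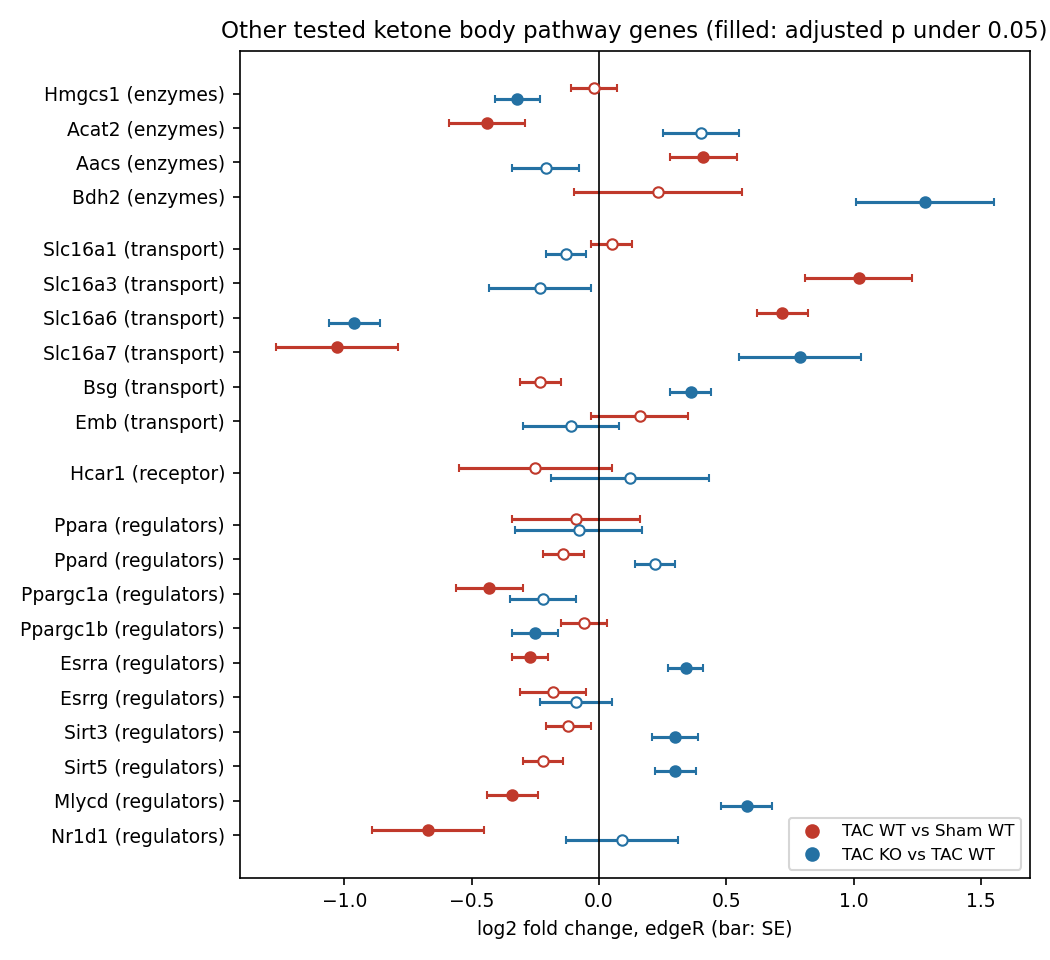
Log2 fold change (x axis) with its SE for the 21 tested ketone body pathway genes other than Bdh1, Oxct1 and Acat1, in TAC WT against Sham WT and TAC KO against TAC WT, with filled points where the edgeR adjusted p is under 0.05. Bdh2 was tested only because it was high in TAC KO. Slc16a6 stands at 0.72 and -0.96, and Slc16a7 at -1.03 and 0.79.

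Acat1 makes acetyl-CoA, as fatty acid oxidation does, and acetyl-CoA feeds the tricarboxylic acid cycle, so both pathways were counted for comparison. Of 21 tested genes 19 fell and 2 did not pass after TAC (median log2 -0.36), and 18 rose and 3 did not pass in TAC KO against TAC WT (median 0.38). Of 18 tested genes of the tricarboxylic acid cycle 17 fell and 1 did not pass after TAC (median -0.26), and 15 rose and 3 did not pass in TAC KO against TAC WT (median 0.30). The 17 became 11 without Sham WT library 1, 10 without TAC WT library 1 and 11 without TAC WT library 4. Of all tested genes 10.0% fell in the first comparison and 15.7% rose in the second. Acat1, at -0.26 and 0.23, had the sign of these medians in both comparisons, which share the TAC WT libraries. Bdh1, at 0.65 and -0.14, had the opposite sign in both, although -0.14 did not pass the test. In TAC KO against Sham WT 1 of the 21 genes of fatty acid oxidation rose and 0 fell (median -0.07). Of the 18 genes of the cycle 3 rose and 2 fell (median 0.03), where 12.8% of all tested genes rose and 14.8% fell. Acat1 had -0.02 there.

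The genes most like each enzyme were taken as the 5 with the highest Pearson correlation of log2 CPM over the 12 libraries among 12031 genes, a description in which groups, libraries and depth are shared. For Acat1 they were Acadm, the medium-chain acyl-CoA dehydrogenase (r = 0.977), Suclg2, a subunit of succinyl-CoA ligase (0.970), Etfdh, which passes electrons from fat oxidation to the respiratory chain (0.959), Rab9 (0.952) and Fh1, fumarate hydratase (0.948). After group means were removed these were 0.935, 0.901, 0.879, 0.821 and 0.828. For Bdh1 they were Glul, glutamine synthetase (0.885), Rapgef1 (0.878), Gabarapl1, an autophagy protein (0.876), Scamp5 (0.861) and Abcb4 (0.846), with 0.901, 0.685, 0.707, 0.637 and 0.613 after group means were removed. For Oxct1 they were Ifit1bl2 (0.889), mt-Nd2, a mitochondrially encoded subunit of complex I (0.881), Nceh1 (0.880), Fundc1, a mitophagy receptor (0.872) and Ccdc57 (0.870), with 0.900, 0.861, 0.849, 0.832 and 0.869. Ranked by Spearman's rho, 4 of 5 for Bdh1, 3 of 5 for Acat1 and 2 of 5 for Oxct1 stayed among the 5 closest.

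Between the enzymes themselves, the Pearson correlation over 12 libraries was 0.69 for Acat1 and Oxct1 (0.75 after group means were removed), -0.18 for Bdh1 and Oxct1 (0.30) and -0.41 for Bdh1 and Acat1 (0.19). With group means removed and the groups pooled, libraries high in Acat1 tended to be high in Oxct1. The values for Bdh1 were then positive. No group was correlated alone, so these signs need not hold within each group.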

How the data were processed

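The deposited values were raw whole-number counts per gene, 1 table per library with 54146 gene records. Per the submitters' processing notes, the tools were STAR, bcl2fastq, DESeq2, featureCounts 1.6.4, FastQC 0.11.8, MultiQC 1.7, StringTie 1.3.5 and Trim Galore 0.5.0, with build GRCm38. Their settings and the annotation release are not given in the sources used here. Symbols, positions and exon lengths came from GENCODE vM21, which named 54079 records, and promoters from RefSeq, whose table held Bdh1 and Oxct1.

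Counts were tested in R 4.3.3 with the quasi-likelihood F-test of edgeR 4.0.16, with TMM scaling and filterByExpr, in 1 fit of 12 libraries and 15477 genes. A gene passed at a Benjamini-Hochberg adjusted p under 0.05 over all tested genes. CPM are counts over the TMM-scaled total. Ratios between enzymes used 0.5 as pseudocount. Intervals for fold changes are at the 95% level. Counting limits hold for counting error alone, because PCR copies were not marked by molecular identifiers. The fit was tested on simulated data.

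The members and lists were chosen with earlier results of these data known. Named are the 3 enzymes, genes of the ketone lists (some results are not reported here), and per enzyme the 5 closest genes of at least 1 mean CPM (log2 CPM with a prior count of 2). Alternatives were RLE and upper-quartile scaling, limma 3.58.1 voom with quality weights, DESeq2 1.42.0, no filter, a filter of 1 CPM in 4 libraries, only the groups compared, 1 surrogate variable (sva 3.50.0), removal of GC and length trends (splines with 5 degrees of freedom), mitochondrial genes left out, ratio pseudocounts of 0.01 and 5, length of the longest transcript, Spearman correlation, and each library left out in turn. No 2 libraries held identical counts.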

Additional observations from a re-analysis of the deposited data

Results flagged for a closer look

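In groups of 4 libraries, a highest or lowest library was set apart when its gap to the nearest other, divided by the range of the group, was above the critical value of Dixon's test, which chance gives in about 1 in 20 groups. Over 24 genes (Bdh1, Oxct1, Acat1 and the 21 tested pathway genes) this was met in 4 of 72 groups, and by none of the 3 enzymes. Acat2 stood at 1.83 CPM in TAC WT library 1 against 2.51 to 2.61 in the others. Slc16a6 stood at 27.1 CPM in TAC WT library 1 against 22 to 22.8. Slc16a7 stood at 6.07 CPM in TAC KO library 2 against 2.78 to 3.2, the library without which its difference between TAC KO and TAC WT was lost. Sirt5 stood at 40 CPM in Sham WT library 1 against 32.3 to 33.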

How the results depend on the processing

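Of 528 values recomputed with all libraries kept, 505 kept their direction and side of the threshold (or, for counts and levels, stayed within 1.5 times or 1 SD), and 601 of 672 did so with 1 library left out. For Bdh1, Oxct1 and Acat1 no call changed in the 90 values with all libraries kept. The sign of Acat1 in TAC KO against Sham WT, which had no call, turned to 0.05 with GC and length trends removed, 0.01 with limma voom and 0.02 without TAC KO library 1, and that of Oxct1 in TAC KO against TAC WT turned to -0.01 without TAC WT library 4. With 1 library left out, Bdh1 in TAC KO against Sham WT ranged from 0.43 to 0.60 (adjusted p 0.0154 to 0.0773), Oxct1 in TAC KO against TAC WT from -0.01 to 0.09, Acat1 in TAC KO against Sham WT from -0.06 to 0.02, and the pathway genes that fell after TAC from 1 to 8, genes of the tricarboxylic acid cycle that did so from 10 to 18, and ketone pathway genes that rose in TAC KO against Sham WT from 1 to 2 (1 with a filter of 1 CPM in 4 libraries). With the longest transcript as length, Bdh1 was at 60.5, 95.2 and 86.5 CPM per kb in Sham WT, TAC WT and TAC KO, Acat1 at 178, 149 and 175, and Oxct1 at 408 in Sham WT. By Spearman correlation 2 of the 5 genes closest to Oxct1 and 3 of those closest to Acat1 were kept. Beside the calls named in the report, Acat2 after TAC (adjusted p = 0.0715 without a filter), Ppargc1a after TAC (0.0549 with only the groups compared), Slc16a7 in TAC KO against TAC WT (0.0515, likewise) and Ppargc1b in TAC KO against TAC WT (0.0519 to 0.183 under 6 settings) were lost, and the cause was not tested. No paired analysis was possible because the labels give the libraries no shared replicate numbers. With 4 libraries a group, the exact test of ratios cannot pass after adjustment unless more of the 9 tests reach its smallest p.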
